A study of Homo sapiens with 6 samples.

Results

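Circadian clock genes and the PAR bZIP genes that they drive were examined in HEK293 cells transfected with a BAHD1 siRNA. The members were 10 genes, CLOCK, NPAS2, PER1, PER2, PER3, CRY1, CRY2, NR1D2, HLF and DBP, found by their symbols in the array's platform annotation. They were read by 28 of the 54613 probe sets on the array that are not controls. Of the 28, 24 are annotated to a member alone, and the 4 for PER1 are annotated to PER1 and to MIR6883, a microRNA gene that lies within PER1, so those signals cannot be given to one of the 2 genes. The genes were selected on their log2 fold changes in an earlier analysis of these 6 arrays, so their differences are given as a description and their adjusted p-values are not independent evidence.

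The samples were 3 cultures of HEK293, a line derived from human embryonic kidney, transfected for 72 h with a BAHD1 siRNA, and 3 transfected for 72 h with a control siRNA, all with a lipid reagent in serum-containing medium. BAHD1 helps to form heterochromatin and silence genes, and the comparison asks which transcripts change when the siRNA targets it. The titles call the samples biological replicates without saying how the cultures were separated, and HEK293 is a single transformed line. All RNA was taken at 72 h, so a shift in the phase of the clock and a change in a gene's mean level cannot be told apart here, nor can fewer cells that express a gene and less RNA per cell.

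The circadian clock is a feedback loop of transcription. CLOCK, or its relative NPAS2, pairs with BMAL1 and binds E-boxes to turn on the PER and CRY genes, whose proteins return to the nucleus and inhibit that pair. In a second loop REV-ERB receptors, of which NR1D2 encodes REV-ERB beta, compete with ROR receptors for elements that control BMAL1. The PAR bZIP factors HLF, DBP and TEF carry clock output by binding D-boxes, where the repressor NFIL3 competes with them. Cultured cells hold such a clock, and it drifts out of step between cells unless it is reset.

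The promoter sequences of the members show where these elements lie. RefSeq windows on GRCh38.p14, from 250 bases before to 50 bases after a transcription start, numbered 15 for the 10 genes. They were searched on both strands for the E-box CACGTG, the related CACGTT, the D-boxes TTATGTAA and TTACGTAA, the ROR and REV-ERB element TAGGTCA and the cyclic AMP response element TGACGTCA. A match was found in 8 of the 15 windows, each from a different gene, and no matches overlapped each other. CLOCK, NR1D2, PER3, HLF and CRY2 each also had another window, at another start, that held no match and is not printed. The window with a match is printed below for CLOCK, NR1D2 and HLF, which held the probe sets with the smallest p-values. It is also printed for CRY1 and PER3, whose groups did not overlap at their brightest probe set. Each is 5′ to 3′ on the gene's own strand with the matches in capitals.
CLOCK, chr4:55545883-55546182, minus strand: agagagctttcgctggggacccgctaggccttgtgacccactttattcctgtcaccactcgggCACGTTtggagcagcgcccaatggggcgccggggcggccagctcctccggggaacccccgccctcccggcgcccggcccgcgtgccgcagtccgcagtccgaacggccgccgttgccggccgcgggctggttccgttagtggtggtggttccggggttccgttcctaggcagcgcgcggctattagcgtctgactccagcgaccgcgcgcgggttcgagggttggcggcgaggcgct
NR1D2, chr3:23945871-23946170, plus strand: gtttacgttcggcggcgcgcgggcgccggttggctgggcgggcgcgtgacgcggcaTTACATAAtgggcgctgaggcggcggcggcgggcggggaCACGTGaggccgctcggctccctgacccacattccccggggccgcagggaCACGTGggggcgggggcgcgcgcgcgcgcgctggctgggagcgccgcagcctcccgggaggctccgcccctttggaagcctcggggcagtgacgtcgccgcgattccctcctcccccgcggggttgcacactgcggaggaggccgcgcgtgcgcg
CRY1, chr12:107093500-107093799, minus strand: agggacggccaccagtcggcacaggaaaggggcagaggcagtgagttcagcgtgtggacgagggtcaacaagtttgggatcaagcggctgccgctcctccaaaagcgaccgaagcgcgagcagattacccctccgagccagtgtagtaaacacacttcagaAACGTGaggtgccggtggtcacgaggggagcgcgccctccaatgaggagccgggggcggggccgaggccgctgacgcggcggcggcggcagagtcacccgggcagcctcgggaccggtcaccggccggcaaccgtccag
PER3, chr1:7784041-7784340, plus strand: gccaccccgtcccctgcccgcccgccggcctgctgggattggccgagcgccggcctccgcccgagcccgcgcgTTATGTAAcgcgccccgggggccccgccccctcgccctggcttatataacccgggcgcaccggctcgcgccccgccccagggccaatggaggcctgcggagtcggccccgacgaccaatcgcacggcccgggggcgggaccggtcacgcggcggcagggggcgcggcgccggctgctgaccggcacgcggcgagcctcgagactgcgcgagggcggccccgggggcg
HLF, chr17:55264710-55265009, plus strand: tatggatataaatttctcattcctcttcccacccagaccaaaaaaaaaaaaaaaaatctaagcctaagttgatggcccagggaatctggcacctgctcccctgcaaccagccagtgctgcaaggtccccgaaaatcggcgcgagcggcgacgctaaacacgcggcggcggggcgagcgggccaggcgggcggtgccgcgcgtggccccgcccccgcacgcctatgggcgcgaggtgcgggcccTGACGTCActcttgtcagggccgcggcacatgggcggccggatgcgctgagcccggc

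The printed NR1D2 window held 3 matches, CACGTG starting 155 and 105 bases before the start and TTATGTAA on the opposite strand starting 194 bases before it. The printed CLOCK window held CACGTT starting 187 bases before the start, and that of CRY1 held it on the opposite strand starting 89 bases before. The printed PER3 window held TTATGTAA starting 177 bases before the start, and that of HLF held TGACGTCA starting 7 bases before. Among the members not printed, PER1 held CACGTG, PER2 held CACGTT and TTACGTAA, CRY2 held CACGTT and TAGGTCA, and NPAS2 and DBP held none of these letters in their windows. In all, CACGTG was in 2 and CACGTT in 4 of the 15 windows, against 7.26% and 5.34% of all 35116 promoter windows of the same length. The longer motifs are rarer, and TTATGTAA, in 2 of the 15 windows, was in 0.886% of all windows. The share of all windows was 0.125% for TTACGTAA and 1.85% for TAGGTCA and for TGACGTCA, each of which was in 1 window of the members. The members' windows were 46.3% to 81.0% G and C, and a match in them is a description of letters, not a binding site.

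Each sample was measured on 1 array whose values are signals on a linear scale, and the median signal ran from 15.8 to 19.5 over the 6 arrays. Arrays correlated at r = 0.94 to 0.947 within a group and at 0.939 to 0.946 between groups, on the log2(signal + 1) scale over all probe sets. BAHD1 signals were 36.6, 46.8 and 41.2 in BAHD1 siRNA arrays, against 62.9, 55.7 and 46.7 in control siRNA arrays, so the highest BAHD1 siRNA value just passed the lowest control value. BAHD1 stood at 76.0% of control, a log2 fold change of -0.40 ± 0.15 (SE) that did not pass (limma, adjusted p = 0.251). The line's structural genes VIM and KRT18 had signals of 2652.6 to 3679.3 and 493.0 to 568.5 where tested, and KRT8 and the kidney factor gene PAX2 had 26.2 to 40.7 and 24.3 to 46.1. The leukocyte and hepatocyte genes PTPRC and ALB stayed at or below 11.7 and 10.1 at every probe set, and the endothelial and muscle genes PECAM1 and DES at or below 20.1 and 31.0. Signals of all 24 probe sets for the spiked-in bacterial poly-A transcripts were higher in BAHD1 siRNA arrays, with a median ratio of 1.49. The ratio of 3′ to 5′ signal was 0.956 to 0.966 in BAHD1 siRNA arrays and 0.926 to 0.955 in control arrays for GAPDH, and for beta-actin it was 1.49 to 1.67 in BAHD1 siRNA arrays and 1.47 to 1.54 in control arrays. The part of these differences in the results below was not tested.

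A probe set was tested when its signal was above 17.9, the median of all values, in at least 3 of the 6 arrays. That left 27458 probe sets, 17 of them for 9 of the 10 members, while CRY2 had none. Differences are log2 fold changes of BAHD1 siRNA over control siRNA on the log2(signal + 1) scale from limma, with Benjamini-Hochberg adjustment over the 27458. In the fit with one variance prior for all probe sets, 0 of the 17 passed an adjusted p of 0.05, where 0% of all probe sets passed, and 8 of the 17 had an unadjusted p under 0.05, where 17.6% of all did. In a fit whose prior follows the mean signal, called the intensity-trend fit here, 5 of the 17 passed, 1 higher (2.17% of all) and 4 lower (2.28% of all), where 4.45% of all probe sets passed. The count of 5 was 3, 1 and 0 without BAHD1 siRNA replicates 1, 2 and 3 in turn, and 1, 1 and 2 without control replicates 1, 2 and 3. The 5 belong to CLOCK, NR1D2 and HLF. The HLF one, 204754_at, is the 1 higher call. It was above the filter in BAHD1 siRNA arrays alone and had to differ to be tested. The groups did not overlap in 8 of the 17, 4 higher and 4 lower, against 25.6% of all probe sets, 13.4% higher and 12.2% lower. HLF 204754_at is among the 4 higher, and its lack of overlap followed from the filter. Since this contrast was known when the genes were chosen, nothing is read from these counts. Adjusted p-values below are given for both fits, and standard errors are those of the fit with one prior.

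CLOCK, which encodes the DNA-binding activator of the loop, was lower in BAHD1 siRNA cells at all 3 of its tested probe sets. At 225856_at the signals were 84.4, 86.6 and 78.0 in BAHD1 siRNA arrays, against 127.1, 134.0 and 135.0 in control arrays. All 3 arrays of each group lay close together and the groups were far apart. The level was 63.1% of control, a log2 fold change of -0.66 ± 0.08 (adjusted p = 0.112 with one prior, 0.0124 in the intensity-trend fit). At 204980_at the signals were 80.1, 82.7 and 90.2 in BAHD1 siRNA arrays, against 140.6, 104.3 and 127.3 in control arrays, and the lowest control array was still above every BAHD1 siRNA array. At 227531_at they were 135.7, 122.4 and 124.4 in BAHD1 siRNA arrays, against 163.5, 172.8 and 197.2 in control arrays, again with no overlap. These 2 probe sets had log2 fold changes of -0.54 ± 0.13 and -0.47 ± 0.10, with adjusted p of 0.167 and 0.153 with one prior, then 0.0437 and 0.0333 in the intensity-trend fit.

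The fourth CLOCK probe set, 217563_at, was below the filter on every array, with 16.4, 9.7 and 4.4 in BAHD1 siRNA arrays and 3.1, 4.7 and 6.9 in control arrays, which overlapped. With each array left out in turn the log2 fold change ran from -0.70 to -0.62 at 225856_at, from -0.66 to -0.45 at 204980_at and from -0.53 to -0.40 at 227531_at. In the intensity-trend fit 225856_at passed in 4 of those 6 fits, 227531_at in 1 (without BAHD1 siRNA replicate 1) and 204980_at in 0, and all 3 stayed lower in each of those fits. When the filter was raised to a signal of 99.9, 227531_at was above it on all 6 arrays and passed with one prior (adjusted p = 0.0253). The other 2 were above it only in control arrays and had to be lower to be tested there, so nothing is read from their calls under that filter.

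NPAS2, the CLOCK relative that can take its place beside BMAL1, passed at neither of its tested probe sets. At 213462_at the signals were 26.0, 30.3 and 36.6 in BAHD1 siRNA arrays, against 37.7, 30.1 and 23.7 in control arrays, so the groups covered the same range. The log2 fold change was 0.03 ± 0.20 (adjusted p = 0.946 with one prior), and its sign turned with quantile-normalised or median-centred arrays. At 39549_at they were 22.4, 26.0 and 31.0 in BAHD1 siRNA arrays, against 16.3, 23.9 and 20.8 in control arrays, and overlapped at 1 array of each group. That difference was 0.37 ± 0.18 (adjusted p = 0.34 with one prior, 0.517 in the intensity-trend fit). The other 3 NPAS2 probe sets did not reach the filter in 3 arrays.

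**Figure D1:**
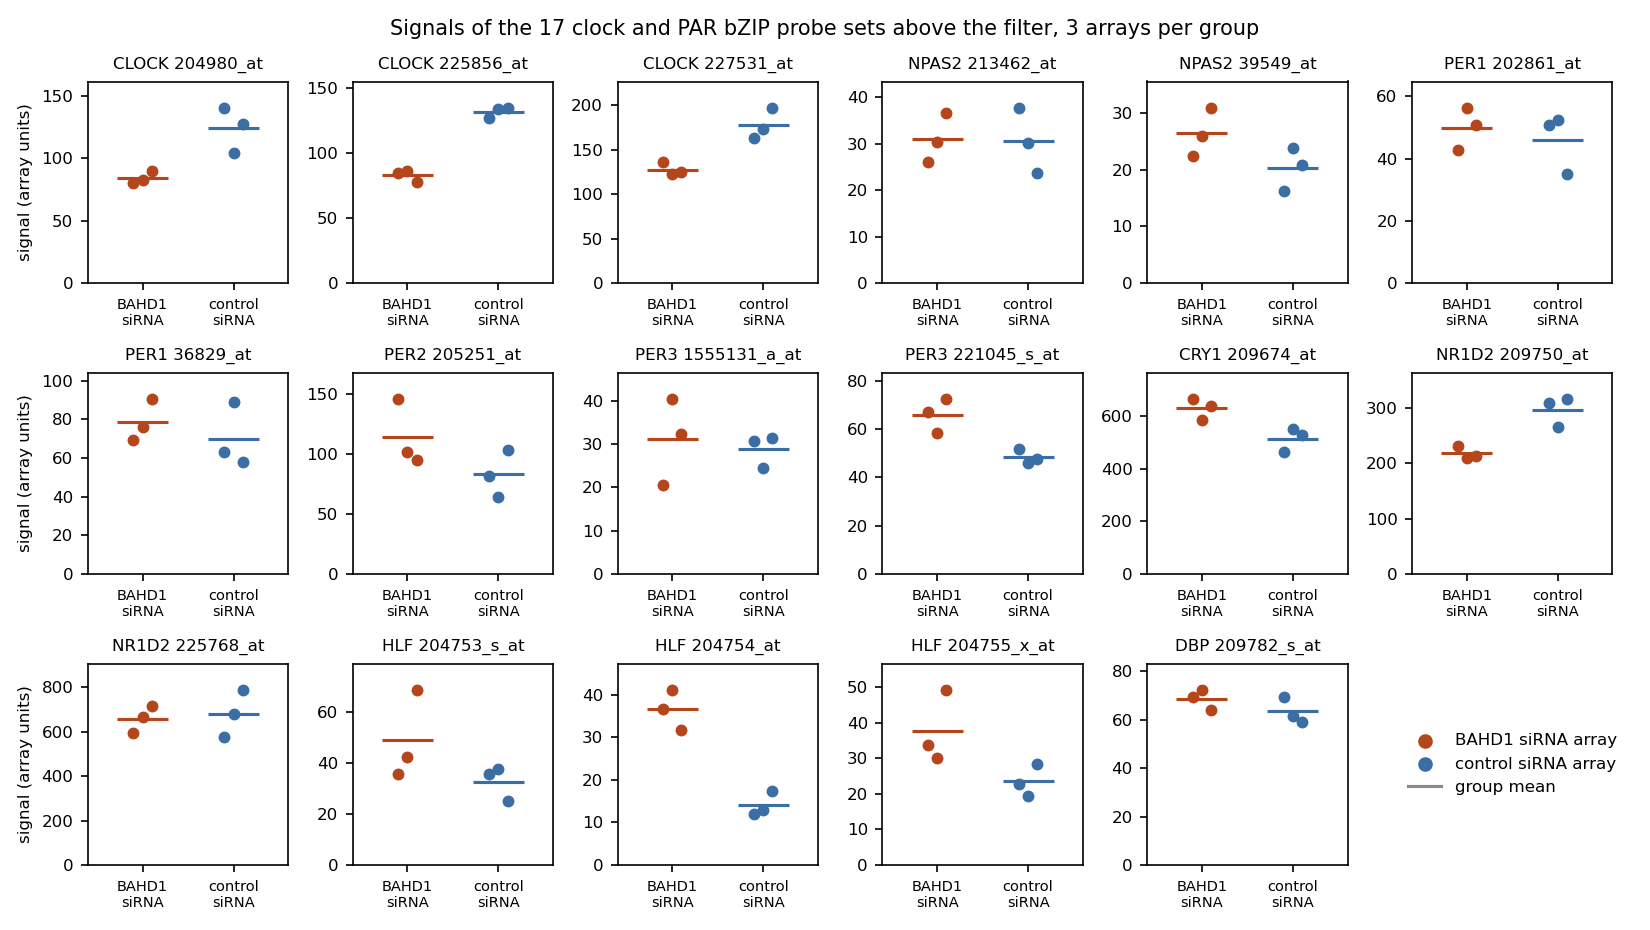
Signal in array units (linear scale from 0) of the 17 tested probe sets of the clock and PAR bZIP genes, with BAHD1 siRNA arrays left of control siRNA arrays, a point per array and a bar at each group mean. The 3 CLOCK panels and NR1D2 209750_at show BAHD1 siRNA arrays below all control arrays, and CRY1, PER3 221045_s_at, HLF 204754_at and HLF 204755_x_at show them above.

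The PER genes encode proteins that carry the delay of the loop, and none of their 5 tested probe sets passed in either fit. PER3 at 221045_s_at had signals of 67.1, 58.3 and 72.5 in BAHD1 siRNA arrays, against 51.6, 45.9 and 47.7 in control arrays, with no overlap. Its log2 fold change was 0.43 ± 0.11 (adjusted p = 0.171 with one prior, 0.149 in the intensity-trend fit). The other tested PER3 probe set, 1555131_a_at, had 20.5, 40.4 and 32.3 in BAHD1 siRNA arrays and 30.7, 24.4 and 31.4 in control arrays, a difference of 0.06 ± 0.25. Its groups overlapped, and its sign turned with quantile-normalised or median-centred arrays. The untested 1555130_at was at 10.9, 2.9 and 7.0 in BAHD1 siRNA arrays and at 0.9, 1.4 and 1.6 in control arrays, all below the filter.

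PER2, the family member with both a CACGTT and a TTACGTAA in its window, had signals of 146.3, 101.6 and 95.1 in BAHD1 siRNA arrays at 205251_at, against 82.1, 64.4 and 103.8 in control arrays. BAHD1 siRNA replicate 1 was the highest of the 6, and control replicate 3 lay above the other 2 BAHD1 siRNA arrays. The log2 fold change was 0.45 ± 0.23 (adjusted p = 0.367 with one prior, 0.201 in the intensity-trend fit), and it was 0.26 to 0.62 with each array left out in turn. The probe sets shared by PER1 and MIR6883 overlapped between groups where they were tested. They had 42.6, 56.3 and 50.7 in BAHD1 siRNA arrays and 50.7, 52.4 and 35.0 in control arrays at 202861_at. At 36829_at they had 69.6, 76.3 and 90.7 in BAHD1 siRNA arrays and 62.9, 89.1 and 57.8 in control arrays. These differences were 0.13 ± 0.19 and 0.19 ± 0.19, and the first turned sign with median-centred arrays or without control replicate 3.

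CRY1 encodes the cryptochrome that, with the PER proteins, inhibits CLOCK and BMAL1. Its single probe set, 209674_at, had signals of 664.8, 584.7 and 637.3 in BAHD1 siRNA arrays, against 461.6, 549.2 and 528.0 in control arrays. All BAHD1 siRNA arrays were above all control arrays, although BAHD1 siRNA replicate 2 and control replicate 2 were near each other. The log2 fold change was 0.30 ± 0.11, or 1.23 times the control level, and it did not pass (adjusted p = 0.238 with one prior, 0.0645 in the intensity-trend fit). With centred array medians it was 0.16 (adjusted p = 0.574 with one prior), a setting that moved the median of all tested probe sets to -0.13, against 0.01 as deposited, and left 31.9% of them higher, against 52.0%. After quantile normalisation of the arrays it was 0.32 and passed in the intensity-trend fit (adjusted p = 0.0455), a combination chosen after seeing the data. CRY2, the second cryptochrome gene, was read by 1 probe set with signals of 10.3, 5.1 and 5.5 in BAHD1 siRNA arrays and 3.6, 8.2 and 16.3 in control arrays, below the filter on all 6 arrays, so no difference could be measured.

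NR1D2, the heme-binding nuclear receptor gene of the second loop, gave different answers at its 2 probe sets. At 209750_at the signals were 231.1, 210.2 and 213.8 in BAHD1 siRNA arrays, against 309.4, 265.4 and 317.0 in control arrays, with no overlap. The level was 73.7% of control, a log2 fold change of -0.44 ± 0.10 (adjusted p = 0.161 with one prior, 0.0255 in the intensity-trend fit). The intensity-trend call held in 2 of the 6 fits with an array left out, those without control replicate 2 and without BAHD1 siRNA replicate 1. At 225768_at the signals were 594.4, 663.2 and 715.6 in BAHD1 siRNA arrays, against 573.5, 678.5 and 787.5 in control arrays, and the groups covered much the same range. That difference was -0.04 ± 0.14 (adjusted p = 0.904 with one prior) and turned positive without control replicate 3 or BAHD1 siRNA replicate 1. Under the raised filter, which both probe sets passed on all 6 arrays, 209750_at was called with one prior (adjusted p = 0.029). There 225768_at was not called (adjusted p = 0.856 with one prior). Which transcript parts the 2 probe sets read was not analysed here, and the lower level holds for 1 of them.

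**Figure D2:**
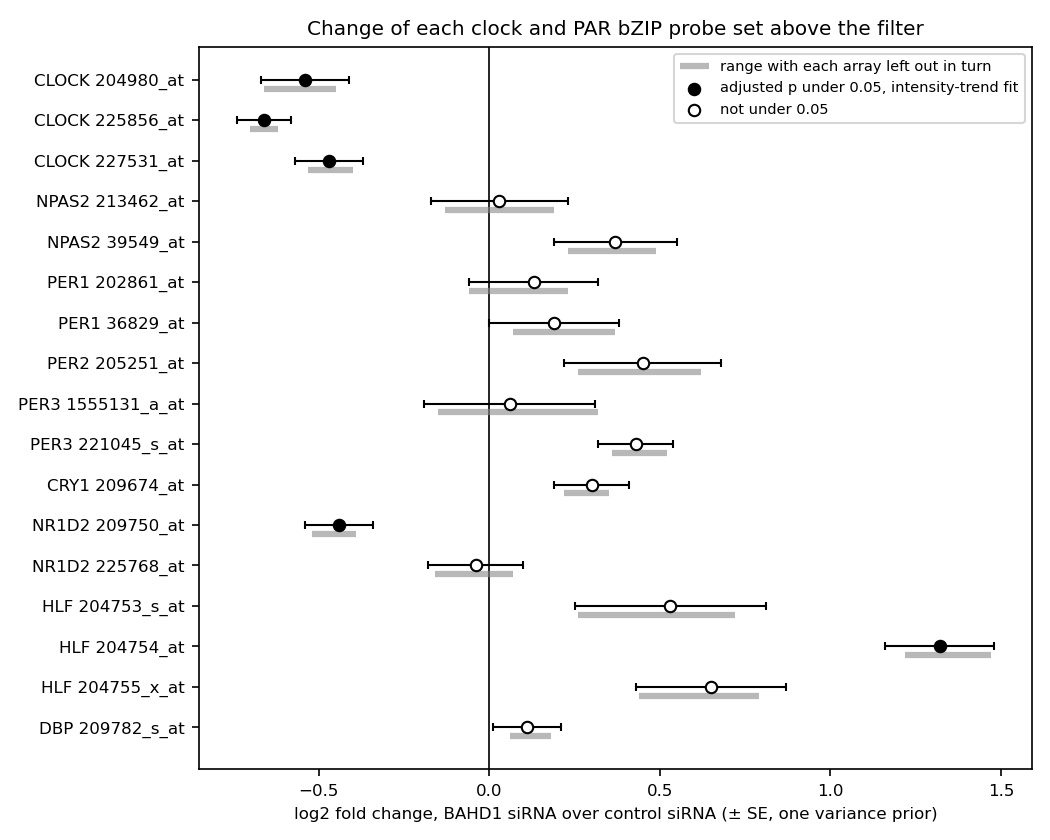
Log2 fold change of BAHD1 siRNA over control siRNA for the 17 tested probe sets, with bars for the SE of the fit with one prior, grey bands for the range with each array left out in turn, and filled points for an adjusted p under 0.05 in the intensity-trend fit. The filled points are CLOCK at -0.66, -0.54 and -0.47, NR1D2 209750_at at -0.44 and HLF 204754_at at 1.32, and the bands of NPAS2 213462_at, PER1 202861_at, PER3 1555131_a_at and NR1D2 225768_at cross 0.

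HLF encodes the hepatic leukemia factor, a PAR bZIP activator of D-box genes, and none of its 3 tested probe sets passed with one prior. At 204754_at the signals were 36.7, 41.2 and 31.8 in BAHD1 siRNA arrays, against 12.0, 13.0 and 17.3 in control arrays. Every control array was below the filter signal of 17.9, so this probe set was tested only through the group where it is high, and it had to differ to be tested. The fitted log2 fold change was 1.32 ± 0.16 (adjusted p = 0.112 with one prior, 0.0307 in the intensity-trend fit). With 16 in place of 1 added to the signal, which damps low values more, it was 0.80. In the intensity-trend fit the call held in 1 of the 6 fits with an array left out, that without control replicate 3, while the difference ran from 1.22 to 1.47.

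The other 2 HLF probe sets were above the filter in both groups, with smaller positive differences that passed in neither fit. At 204755_x_at the signals were 33.7, 30.2 and 49.3 in BAHD1 siRNA arrays, against 22.7, 19.3 and 28.5 in control arrays, with no overlap, and the difference was 0.65 ± 0.22 (adjusted p = 0.231 with one prior, 0.188 in the intensity-trend fit). At 204753_s_at they were 35.8, 42.2 and 68.7 in BAHD1 siRNA arrays, against 35.7, 37.5 and 25.0 in control arrays. There BAHD1 siRNA replicate 1 lay below control replicate 2, and BAHD1 siRNA replicate 3 stood apart as the highest. That difference was 0.53 ± 0.28 (adjusted p = 0.368 with one prior, 0.265 in the intensity-trend fit) and 0.26 to 0.72 with each array left out in turn. The _x_ and _s_ in these names, and the _s_ in PER3 221045_s_at and DBP 209782_s_at, mark probe sets whose probes can also match other transcripts.

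DBP, the D-box activator that is a classical direct output of CLOCK and BMAL1, differed little. At 209782_s_at its signals were 69.3, 72.3 and 63.9 in BAHD1 siRNA arrays, against 69.5, 61.5 and 59.1 in control arrays, and they overlapped. The log2 fold change was 0.11 ± 0.10 (adjusted p = 0.589 with one prior, 0.713 in the intensity-trend fit), and -0.03 with median-centred arrays. The second DBP probe set was below the filter on all 6 arrays.

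Dim probe sets were more often higher in BAHD1 siRNA arrays across all genes, and probe sets of HLF, NPAS2 and PER3 were among the dim ones. Of all tested probe sets, 60.9% were higher in the dimmest quartile by mean signal, at a median of 0.11, and 42.1% in the brightest, at a median of -0.04. Probe sets 204754_at and 204755_x_at of HLF, both tested ones of NPAS2 and 1555131_a_at of PER3 lay in the dimmest quartile, the 3 of CLOCK and 209750_at of NR1D2 in the third, and CRY1 in the brightest. After quantile normalisation, which brought the share higher to 50.3% in the dimmest quartile and 48.2% in the brightest, the log2 fold changes were 1.22, 0.57 and 0.45 for HLF at 204754_at, 204755_x_at and 204753_s_at. They were -0.69, -0.57 and -0.48 for CLOCK at 225856_at, 204980_at and 227531_at, -0.44 for NR1D2 at 209750_at, 0.43 for PER2 and 0.38 for PER3 at 221045_s_at.

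**Figure D3:**
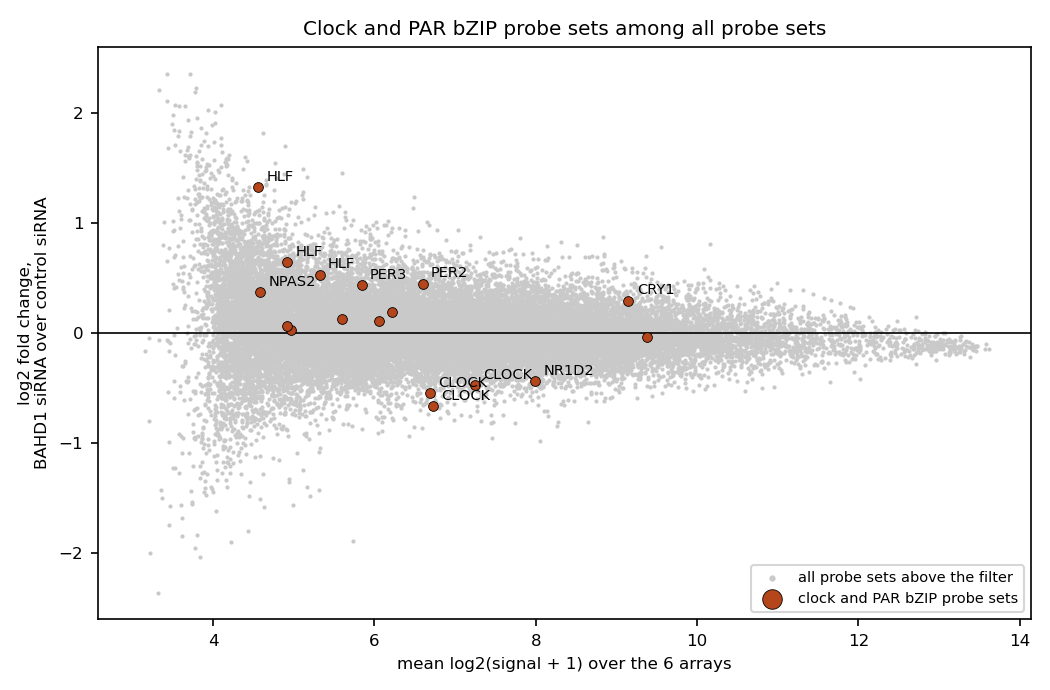
Log2 fold change of BAHD1 siRNA over control siRNA against the mean log2(signal + 1) over the 6 arrays, for the 27458 tested probe sets (grey) and the 17 of the clock and PAR bZIP genes (orange, named where the change is above 0.28 in size). The spread is widest at low signal, where HLF at 1.32 lies, while CLOCK, NR1D2 and CRY1 lie at signals where the grey cloud is narrower.

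The 11 probe sets of the members that were not tested had signals from 0.9 to 24.0. Of these, 9 overlapped between groups. The other 2, PER3 1555130_at and 242832_at of PER1 and MIR6883, were higher in BAHD1 siRNA arrays. The PER1 one had 1.9, 3.3 and 2.4 there, against 1.0, 1.7 and 1.6 in control arrays. The share of all untested probe sets without overlap was not counted, so nothing is read from these 2. Genes with tested and untested probe sets were described above by the tested ones, since the deposited signals come with no stated background.

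The rest of the clock was read through a list of 37 genes with textbook roles in it, of which 33 had a tested probe set annotated to them alone, each represented by its brightest. In the fit with one prior 0 of the 33 passed, and 4 had an unadjusted p under 0.05, where 17.6% of all probe sets did. In the intensity-trend fit 1 passed, CSNK1D, where 4.45% of all probe sets did. Over all 86 tested probe sets of these genes, 3 passed in that fit, 1 higher and 2 lower. Of the 33, 15 were higher and 18 lower at a median of -0.02, beside a median of 0.01 over all tested probe sets. The groups did not overlap in 9 of the 33, 27.3%, near the 25.6% of all probe sets.

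CSNK1D, the casein kinase 1 delta gene whose product phosphorylates PER proteins, had signals of 314.6, 302.9 and 310.2 in BAHD1 siRNA arrays, against 407.2, 355.3 and 405.4 in control arrays. All BAHD1 siRNA arrays were below all control arrays, the log2 fold change was -0.33 ± 0.09 (adjusted p = 0.184 with one prior, 0.0436 in the intensity-trend fit), and its second tested probe set was at -0.43. With any 1 of the 6 arrays left out, that call was lost in the intensity-trend fit. The next smallest p-values among lower genes belonged to FBXW11 at -0.25 ± 0.08, a ubiquitin ligase subunit that acts on PER proteins, to the kinase gene GSK3B at -0.18 ± 0.08 and to CSNK2B at -0.15 ± 0.08, a casein kinase 2 subunit. Among higher genes they belonged to NAMPT at 0.28 ± 0.08, an enzyme of NAD synthesis under clock control, to the acetyltransferase gene EP300 at 0.46 ± 0.17, to the catalytic casein kinase 2 gene CSNK2A1 at 0.24 ± 0.10 and to the NAD-dependent deacetylase gene SIRT1 at 0.21 ± 0.09. None of these 7 passed in either fit at its brightest probe set, and the other probe sets of CSNK2A1 were at -0.27 to -0.17.

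Direct partners of the members are named here for their roles, after their values were seen, and none passed in either fit at its brightest probe set. BMAL1, which pairs with CLOCK, had signals of 134.5, 108.5 and 118.4 in BAHD1 siRNA arrays, against 118.0, 102.0 and 116.2 in control arrays, a difference of 0.10 ± 0.12 with overlap. TEF, the PAR bZIP gene beside HLF and DBP, had 36.7, 58.7 and 57.2 in BAHD1 siRNA arrays and 49.9, 54.8 and 59.0 in control arrays, a difference of -0.13 ± 0.20. NFIL3, the D-box repressor gene, had 214.0, 282.3 and 302.8 in BAHD1 siRNA arrays and 298.1, 273.4 and 252.9 in control arrays, a difference of -0.06 ± 0.15. All 3 overlapped between groups and had adjusted p of 0.672, 0.761 and 0.868 with one prior. Of the ROR receptor genes, RORB had 93.5, 103.7 and 86.2 in BAHD1 siRNA arrays, against 71.3, 57.5 and 98.7 in control arrays, a difference of 0.34 ± 0.20 (adjusted p = 0.423 with one prior). Control replicate 3 lay within the BAHD1 siRNA range, and the other 2 RORB probe sets were at 0.63 and 0.64. RORA had 70.2, 79.7 and 81.2 in BAHD1 siRNA arrays, against 69.1, 94.1 and 87.4 in control arrays, which overlapped. Its difference was -0.11 ± 0.14 (adjusted p = 0.717 with one prior), and its other probe sets were at 0.06 to 0.33. CIART, a repressor of CLOCK and BMAL1, had a difference of -1.32 ± 0.84, from 1.3, 23.1 and 12.6 in BAHD1 siRNA arrays and 16.1, 23.9 and 26.4 in control arrays. BAHD1 siRNA replicate 1 was the lowest of the 6 arrays, the groups overlapped, and it did not pass (adjusted p = 0.456 with one prior). The difference was -0.33 without that array and -0.50 with 16 in place of 1 added to the signal, and with each array left out in turn it ran from -2.02 to -0.33.

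**Figure D4:**
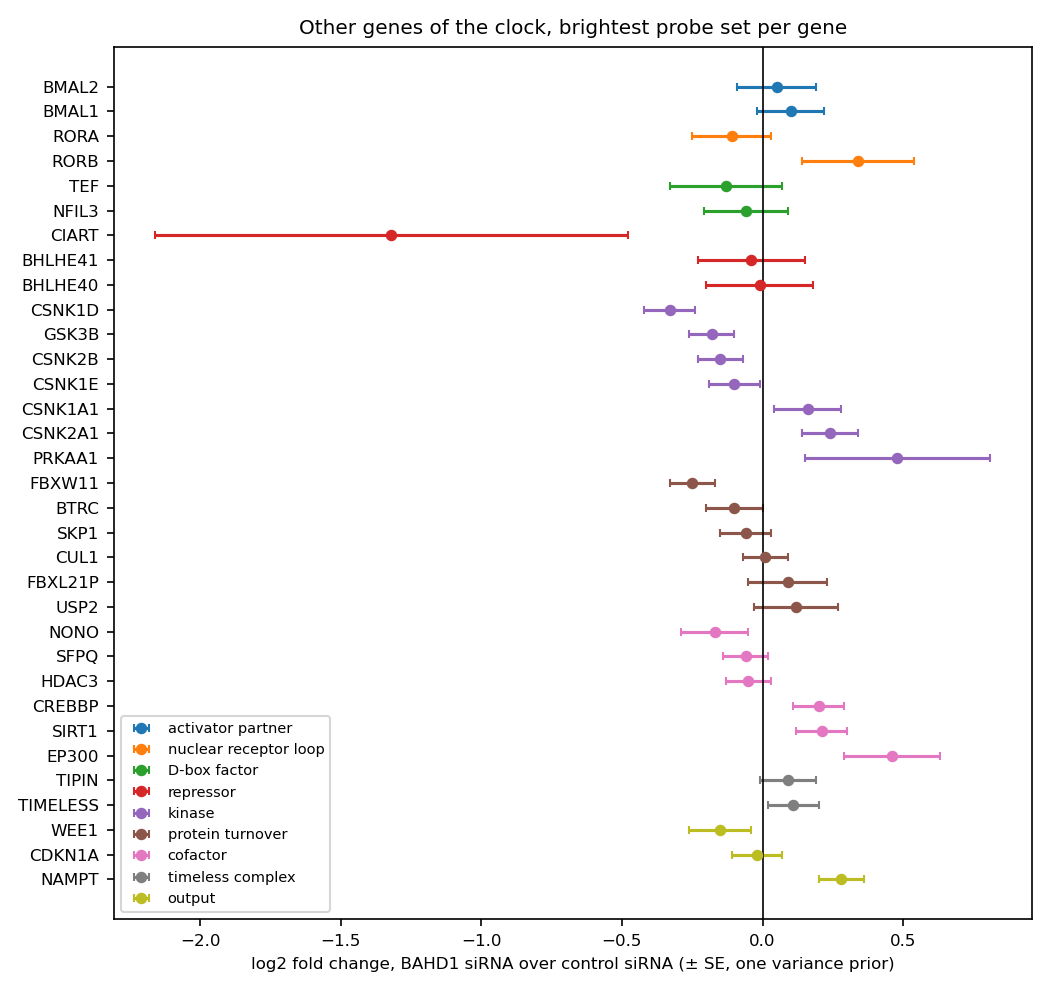
Log2 fold change of BAHD1 siRNA over control siRNA with the SE of the fit with one prior, for the brightest tested probe set of 33 other clock genes, coloured by role. Apart from CIART at -1.32 with an SE of 0.84, the genes lie between -0.33 and 0.48.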

How the data were processed

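Per the labels' protocols, biotin was incorporated during a single round of in vitro transcription from oligo(dT)-primed cDNA, with 1 array per sample. The deposited values are linear intensities, a value per array for each probe set. The mean of each array without its highest and lowest 2% is 100.0, as scaling in GCOS gives. GCOS and GCRMA are named in the submitters' processing notes, without roles or versions. Samples were grouped by title.

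The 62 control probe sets were left out, log2(intensity + 1) was taken, and limma 3.58.1 in R 4.3.3 (lmFit, eBayes with one variance prior, no covariates, all 6 arrays) was run on probe sets above 17.9 in at least 3 arrays. The intensity-trend fit used trend and robust priors. Fits were run on simulated arrays whose spread depended on mean signal alone, where the check was that fold changes were recovered. That setting is simpler than these arrays, so it does not test the calls made here. The design assumed log2 values or, for a linear table, log2(value + 1). The number of arrays limits the precision, and p-values measure only the spread between these samples. The members, lists and settings were chosen with earlier results of these data known. Named genes were BAHD1, all members, and in the list of other clock genes the 4 smallest p-values per direction and any called gene, both at the brightest probe set. Of the 37 list genes, 4 that lack a single-gene probe set in the annotation used were not analysed here. Promoter sequences are RefSeq's on GRCh38.p14, and all 10 members matched by symbol. Protein sequences were not used here.

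Alternatives were the intensity-trend prior, blocking on replicate, dropping or tightening the filter, quantile normalisation, centred medians, another pseudocount, array weights and leaving out each array.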

Additional observations from a re-analysis of the deposited data

How the results depend on the processing

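In the fit with one prior, 0 probe sets passed over the whole array, 0 of the members and 0 of the other clock genes, and this count was also 0 with no filter, quantile normalisation, centred medians, log2(value + 16), array weights, the replicate block, or every tested probe set of a listed gene in place of the brightest. With one array left out it was 0 to 4 over all, 0 to 0 for members and 0 to 0 for other clock genes. The 3 counts were 1221, 5 and 1 with the intensity-trend prior, out of 27458, 17 and 33 tested. With the stricter filter and one prior they were 1147, 4 and 1, out of 13876, 7 and 26. With no filter and the intensity-trend prior, a pairing chosen after seeing the data, they were 398, 1 and 0, out of 54613, 28 and 33. They were 1226, 6 and 2 with quantile normalisation and the intensity-trend prior, likewise added later. Of the 4 member calls with the stricter filter, 2, CLOCK 225856_at and 204980_at, were above it in control arrays alone and had to be lower to be tested. Of the 5 member calls with the intensity-trend prior, 1, HLF 204754_at, was above the filter in BAHD1 siRNA arrays alone and had to differ to be tested. With one array left out of the intensity-trend fit the 3 counts ran from 177 to 1174, from 0 to 3 and from 0 to 2. The first count was 1132, 186 and 177 without BAHD1 siRNA replicates 1, 2 and 3. It was 295, 279 and 1174 without control replicates 1, 2 and 3. With the replicate block and the intensity-trend prior they were 1629, 5 and 3. Replicate numbers were shared by the titles, which do not say whether same-numbered cultures were handled together. The deviations of same-numbered arrays correlated at 0.0101, 0.0102 and 0.0239, and those of the other pairs at -0.0278 to 0.017. With 3 arrays per group these values cannot show whether the cultures were paired.

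BAHD1 kept its direction in all 22 alternatives that tested it, at -0.53 to -0.30; the stricter filter leaves it and several dim member probe sets out. Of 381 values of single member probe sets under alternatives, 22 reversed, in 5 probe sets. NPAS2 213462_at was -0.06 with quantile normalisation (both priors), -0.11 with centred medians and -0.13 to 0.19 with one array left out (-0.09 without BAHD1 siRNA replicate 3). PER3 1555131_a_at was -0.02 with quantile normalisation (both priors), -0.08 with centred medians and -0.15 to 0.32 with one array left out (-0.05 without control replicate 2). PER1 202861_at was -0.01 and DBP 209782_s_at -0.03 with centred medians. With one array left out PER1 202861_at ran from -0.06 to 0.23 and NR1D2 225768_at from -0.16 to 0.07 (0.03 without BAHD1 siRNA replicate 1). The causes were not tested. Dim signals limit CRY2, most of NPAS2 and the HLF comparison.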
